A study of Homo sapiens with 8 samples.

Results

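The genes described here are 10 classical p53 target effectors, that is, genes that p53 switches on and whose products carry out parts of its response: AEN, TP53I3, PERP, ZMAT3, TP53INP1, FDXR, PHLDA3, BTG2, PLK2 and PLK3. They were chosen by name, by the RefSeq accession of the array probe or by symbol, from 20296 genes with a named probe, and all 10 had one. Where a gene had more than 1 probe, the probe with the highest mean level over the arrays was used. RNA came from MCF10A, a non-tumorigenic line of human mammary epithelial cells, either labelled p53+/+ (wild-type p53) or p53-/- (p53-null). Cells of each genotype were harvested untreated (0 h) or at 12, 24 and 48 h after doxorubicin (also called adriamycin, ADR), a drug that damages DNA, which the labels give as 0.5 µg/ml for 2 h and the paper's methods give at a higher dose. How the p53-/- line was made, and whether it is 1 clone, is not given in the sources used here. There was 1 single-colour array for each genotype and time, 8 arrays in all, so no group has a replicate.

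In unstressed cells the protein p53 is kept at a low level by MDM2, a ubiquitin ligase. DNA damage stabilizes p53, which then binds its response elements as a tetramer and activates transcription of genes that stop the cell cycle, repair DNA, change metabolism or kill the cell. The 10 genes cover several of these roles. AEN (a nuclease), PERP (a membrane protein that also sits in desmosomes, the junctions that tie epithelial cells together) and TP53INP1 (a stress protein that promotes phosphorylation of p53 and autophagy) act in cell death. TP53I3, also called PIG3, resembles quinone oxidoreductases, and FDXR, ferredoxin reductase, passes electrons from NADPH to ferredoxin in mitochondria. ZMAT3 and BTG2 act on RNA, PHLDA3 restrains the kinase AKT, and PLK2 and PLK3 are polo-like kinases that respond to stress.

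The p53 response element repeats a decamer with a fixed consensus. Exact matches to a single decamer near the starts of these genes are shown, since p53 binds through copies of it. A single decamer is only part of an element, and a second copy beside it was not required. RefSeq promoters (assembly GRCh38.p14, 250 bases before to 50 after each start) were matched by symbol for 8 of the 10 genes, with 10 promoters among them. PHLDA3 and TP53INP1 are named only. On either strand, 3 of the 10 promoters held an exact match, against 6.63% of all 35116 promoters of that length. Each sequence below runs 5′ to 3′ on the strand of the gene, with the decamer in capitals.
AEN, chr15:88621286-88621335, plus strand: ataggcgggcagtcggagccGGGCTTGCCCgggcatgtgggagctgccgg
FDXR, chr17:74872995-74873025, minus strand: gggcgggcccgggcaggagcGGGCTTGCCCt
PLK2, chr5:58460189-58460238, minus strand: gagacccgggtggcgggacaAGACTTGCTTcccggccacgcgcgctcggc
The match lay 34 to 25 bases before the start in AEN, 11 to 2 bases before it in FDXR and 132 to 123 bases before it in PLK2. The 10 letters were identical in AEN and FDXR. A match is a run of letters, not a measured binding site, and the arrays were designed on another build (hg19), so these positions belong to the RefSeq table alone.

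Levels below are the log2 processed signal of a probe relative to the 75th percentile of its array, so 0 is the level of that percentile. The 10 genes were well above background on all 8 arrays. The arrays themselves had 4 features that touch the results. The 75th percentile of the processed signal ranged from 661 to 1015 in the p53+/+ set and from 879 to 1199 in the p53-/- set, and the scaling removes this difference. On the treated arrays alone it was 661.2 to 817.6 in p53+/+ and 1118.5 to 1198.8 in p53-/-, without overlap. The scaling therefore raises every difference of treated p53+/+ minus treated p53-/-. On 7 arrays 6 of 10 spike-in probes were well above background, but on the p53+/+ 48 h array 0 of 10 were. All 8 arrays lay on 1 slide by their barcodes. With the barcode numbers read as column and row, p53-/- was in column 1 and p53+/+ in column 2, so genotype and column cannot be told apart. Rows 1 to 4 held 0, 12, 24 and 48 h in both genotypes, so time and row cannot be told apart either. On the array labelled p53+/+ 0 h, all 10 genes lay nearer to the p53-/- 0 h array than to the p53+/+ 12 h array, and 6 of the 10 lay within the range of the 4 p53-/- arrays. CDH1, the gene of the epithelial cadherin, had a level of -3.13 on that array, -3.55 on the p53-/- 0 h array and 1.42 to 2.10 on the treated p53+/+ arrays. A gene that rises after treatment would lie near an untreated array of either genotype, so this nearness cannot show whether that label is right. The rises in p53+/+ cells are also given from the p53-/- 0 h array. Differences between treated genotypes use no 0 h array. The interaction estimates cannot be had without the array labelled p53+/+ 0 h.

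The epithelial identity of the cells was checked with marker lists. Of 8 basal mammary markers all were well above background on at least 1 array and 7 on all arrays, and their summed linear level was 281 to 500 times the 75th percentile on p53+/+ arrays and 204 to 239 times on p53-/- arrays. By limma, 6 of the 8 were higher in treated p53+/+ cells, among them KRT5, KRT14, KRT17, CDH3 and CDH1, against 10.6% of all probes. For luminal markers the sums were 39.7 to 95.0 and 39.2 to 64.3, with PGR above background on none, and GATA3 was higher. Fibroblast, leukocyte and endothelial sums stayed at or under 6.14 on every array, COL1A2 and COL3A1 were above background on none, ITGAM was higher in treated p53+/+ cells, and COL1A1, PDGFRB, CD14 and PECAM1 were lower. The basal markers thus moved with genotype alongside the target genes, and their part in the results was not tested.

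After treatment all 10 genes were higher in p53+/+ than in p53-/- cells at 12, 24 and 48 h, each by at least 2-fold at each time, a size reached by 6.75% of the 15811 genes above background on at least 1 array. BTG2, TP53INP1 and FDXR showed the largest differences among the 10, with mean folds of 38.3, 24.6 and 24.2, and PERP and AEN the smallest, with 3.38 and 3.75. At 12, 24 and 48 h the median log2 differences of the 10 genes were 2.93, 3.22 and 3.08, beside medians of 0.09, -0.03 and 0.10 over all genes. For each of the 10 the lowest treated p53+/+ array lay above all 4 p53-/- arrays, which 20% of all genes also showed. With limma over the 6 treated arrays, in which the 3 times stand in for replicates, 10 of 10 genes passed a Benjamini-Hochberg adjusted p of 0.05 as higher in p53+/+, against 10.6% of 28947 probes. Of all probes called, 58.8% were higher in p53+/+, a share that was 45.7% when arrays were scaled on the median, 48.3% after quantile normalization, 73.3% with normexp background correction and 14.5% without scaling, while the 10 genes passed as higher in each of these fits. These p-values set the genotype difference against movement over time and not against replicate cultures.

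**Figure D1:**
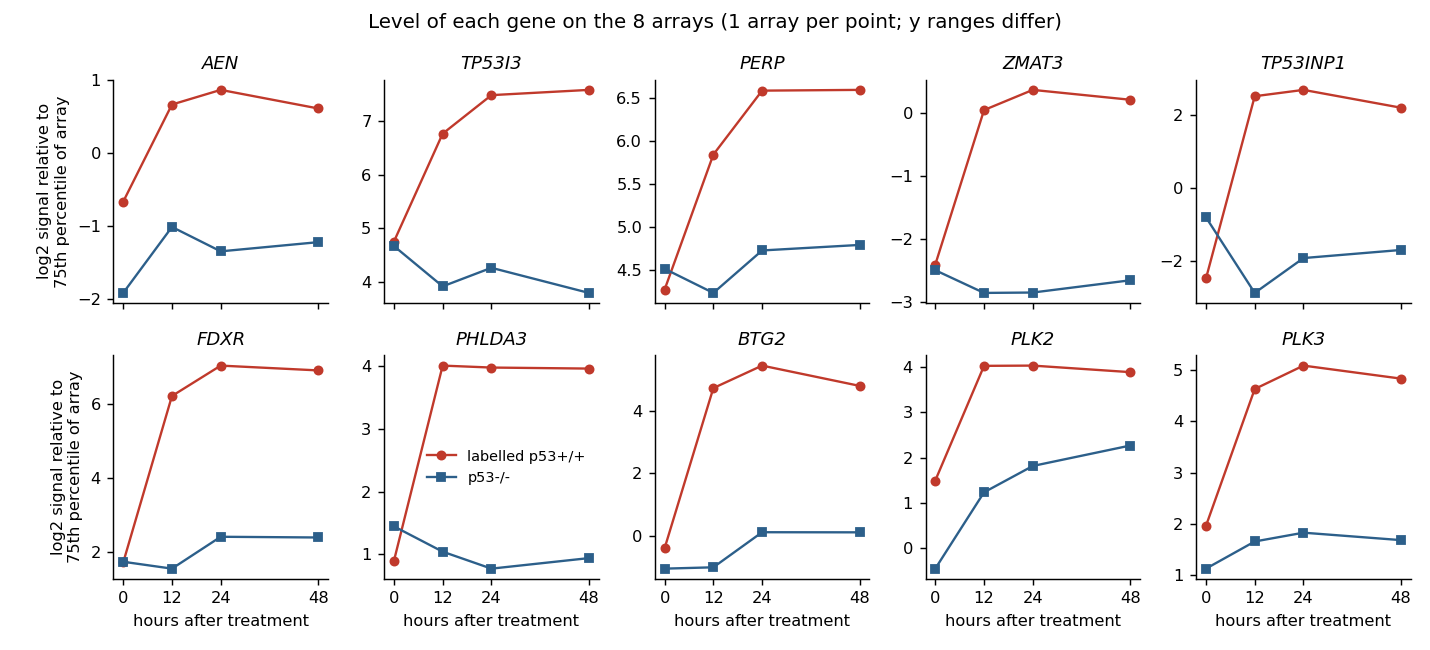
Log2 signal relative to the 75th percentile of the array (y axis, a separate range for each gene) against hours after treatment (x axis) for the 10 genes. Each point is 1 array, with circles for p53+/+ and squares for p53-/-. In every panel the treated p53+/+ points lie above all 4 p53-/- points, and in the PLK2 panel the p53-/- line also climbs, from -0.46 to 2.27.

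Among the death effectors TP53INP1 had the widest gap. Its 4 levels, in the order 0, 12, 24 and 48 h, were -2.47, 2.51, 2.68 and 2.20 in p53+/+ cells, against -0.80, -2.87, -1.92 and -1.69 in p53-/- cells. On this probe the genotypes parted from opposite sides. The p53-/- level dropped below its own 0 h value at every time while the p53+/+ level rose. The log2 difference between treated genotypes narrowed from 5.38 at 12 h to 4.60 at 24 h and 3.89 at 48 h, and limma estimated it at 4.62 (SE 0.34, adjusted p = 0.000777). A second probe of TP53INP1, above background on 6 arrays, gave smaller differences of 4.17, 3.44 and 3.43. Its p53-/- level changed by -0.93, 0.05 and -0.23 from 0 h, so it did not show the drop at 24 h.

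PERP was bright in every sample and moved over a narrow range. Its level was 4.27, 5.84, 6.59 and 6.59 in p53+/+ cells, against 4.51, 4.23, 4.73 and 4.79 in p53-/- cells. The 2 groups of treated arrays did not overlap, with differences of 1.61, 1.86 and 1.80, and the limma estimate of 1.76 (SE 0.29, adjusted p = 0.0101) was the smallest of the 10. It is the call that depended most on the time points used. The adjusted p was 0.146 without the 24 h arrays and 0.0559 without the 48 h arrays, and over all alternatives it ranged from 0.00200 to 0.146.

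AEN was one of the genes whose arrays also differed between genotypes before treatment. Its level was -0.67, 0.66, 0.86 and 0.61 in p53+/+ cells, against -1.91, -1.01, -1.35 and -1.22 in p53-/- cells. It was 1.25 higher on the array labelled p53+/+ 0 h than on the p53-/- 0 h array. After treatment the difference was 1.68, 2.21 and 1.83 at 12, 24 and 48 h, with a limma estimate of 1.91 (SE 0.19, adjusted p = 0.00195) that had an adjusted p of 0.0789 without the 24 h arrays. The second probe of AEN was also at least 2-fold higher at all 3 times, by 1.68 at 12 h and 2.18 at 24 h.

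Of the 2 oxidoreductases, FDXR reached the larger difference and held it. Its level was 1.72, 6.22, 7.04 and 6.91 in p53+/+ cells, against 1.74, 1.56, 2.42 and 2.40 in p53-/- cells, so that the genotypes were 0.02 apart at 0 h. The difference was 4.66, 4.62 and 4.51 at the 3 times (limma 4.59, SE 0.34, adjusted p = 0.000761). TP53I3 had levels of 4.75, 6.77, 7.49 and 7.59 in p53+/+ cells, against 4.66, 3.91, 4.26 and 3.79 in p53-/- cells. Its gap was the only one of the 10 that widened at each step, from 2.86 through 3.23 to 3.80, and the limma estimate was 3.30 (SE 0.28, adjusted p = 0.00115). Its second probe gave 2.97, 3.60 and 3.82, also widening. FDX1, the ferredoxin that FDXR serves, differed by -0.18 (limma, SE 0.21) and did not pass the test.

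The RNA regulators BTG2 and ZMAT3 both rose from low levels in p53+/+ cells. BTG2, an antiproliferative protein that brings the CCR4-NOT deadenylase to messenger RNA, had levels of -0.40, 4.74, 5.46 and 4.81 in p53+/+ cells, against -1.05, -1.01, 0.12 and 0.11 in p53-/- cells. This was the largest difference of the 10, with 5.75, 5.34 and 4.69 at the 3 times and a limma estimate of 5.26 (SE 0.38, adjusted p = 0.000736). Among 15811 genes it ranked 54, 87 and 77 from the top. The deadenylase subunits CNOT7 and CNOT8 had limma estimates of -0.56 and -0.72 and did not pass the test. ZMAT3, a zinc finger protein that binds RNA, had levels of -2.40, 0.05, 0.37 and 0.21 in p53+/+ cells, against -2.49, -2.85, -2.84 and -2.65 in p53-/- cells. Its probe was printed in 10 spots, and the difference of 2.90, 3.21 and 2.86 gave a limma estimate of 2.99 (SE 0.18, adjusted p = 0.000457).

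PHLDA3, whose pleckstrin homology domain competes with AKT for membrane lipids, was the steadiest of the 10 after treatment. Its level was 0.89, 4.01, 3.98 and 3.96 in p53+/+ cells, against 1.44, 1.04, 0.77 and 0.94 in p53-/- cells. The treated p53+/+ arrays lay within 0.05 of each other, the difference was 2.97, 3.21 and 3.02, and the limma estimate was 3.06 (SE 0.17, adjusted p = 0.000374), the smallest p of the 10.

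The polo-like kinases PLK2 and PLK3 differed in what p53-/- cells did. PLK3 had levels of 1.97, 4.63, 5.09 and 4.83 in p53+/+ cells, against 1.13, 1.66, 1.83 and 1.69 in p53-/- cells, with differences of 2.97, 3.26 and 3.15 and a limma estimate of 3.13 (SE 0.19, adjusted p = 0.000476). PLK2 had levels of 1.49, 4.03, 4.04 and 3.89 in p53+/+ cells, against -0.46, 1.23, 1.81 and 2.27 in p53-/- cells. PLK2 thus rose after treatment in both genotypes, and the gap closed from 2.80 at 12 h to 2.22 at 24 h and 1.62 at 48 h. The limma estimate was 2.22 (SE 0.28, adjusted p = 0.00456), with an adjusted p of 0.110 without the 24 h arrays.

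**Figure D2:**
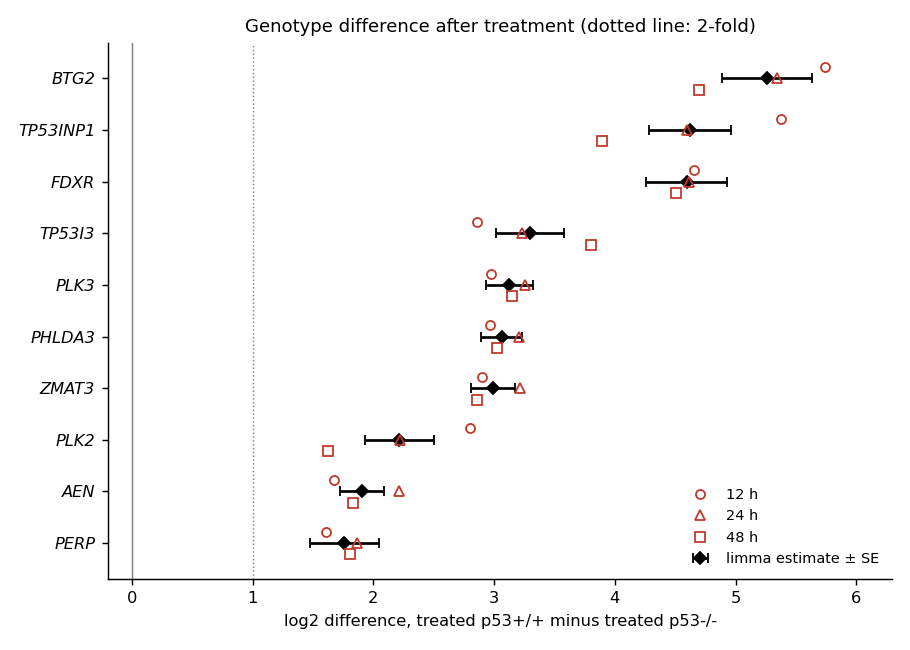
Log2 difference of treated p53+/+ minus treated p53-/- (x axis) for each gene (y axis), sorted by the limma estimate. Diamonds with bars are the limma estimate and its SE over the 6 treated arrays, and open red symbols are the 3 times. All points lie to the right of the 2-fold line, and the estimates run from 1.76 for PERP to 5.26 for BTG2.

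Against their own 0 h arrays the genotypes differed in how many of the 10 genes rose. All 10 rose by at least 2-fold at all 3 times in p53+/+ cells when measured from the array labelled p53+/+ 0 h, as did 9.53% of all genes. Measured from the p53-/- 0 h array instead, all 10 again rose at all 3 times, as did 9.55% of all genes. In p53-/- cells 1 of 10, PLK2, rose at all 3 times, as did 3.21% of all genes. With 1 array a group these changes were described by their size and not tested. Without scaling between arrays AEN was under 2-fold at 48 h and 9 of 10 rose in p53+/+ cells, and under a 3-fold rule 8 of 10 did. The second probe of AEN, not used in these counts, rose by 1.29, 1.37 and 0.97 from the array labelled p53+/+ 0 h, so under 2-fold at 48 h. The technical SD of a log2 difference between 2 arrays, taken from the spread over spots of probes printed in 10 spots, was 0.05 to 0.12 for the 10 genes.

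BTG2, FDXR and TP53INP1 had the largest rises of the 10 when p53+/+ cells were measured from the array labelled p53+/+ 0 h. BTG2 rose by 5.13, 5.85 and 5.20 on the log2 scale at 12, 24 and 48 h, FDXR by 4.49, 5.31 and 5.18, and TP53INP1 by 4.98, 5.16 and 4.67. From the p53-/- 0 h array the same levels gave 5.79, 6.51 and 5.86 for BTG2, 4.47, 5.29 and 5.16 for FDXR, and 3.31, 3.49 and 3.00 for TP53INP1. From that array PLK3, at 3.50, 3.96 and 3.70, and PLK2 lay above TP53INP1. PLK2 moved the most with the baseline, from 2.54, 2.54 and 2.40 to 4.49, 4.49 and 4.35. From the array labelled p53+/+ 0 h, PERP and AEN had the smallest rises, at 1.57, 2.32 and 2.33 and at 1.33, 1.53 and 1.28, and from the p53-/- 0 h array they were at 1.33, 2.07 and 2.08 and at 2.58, 2.78 and 2.52. Between these lay PHLDA3 with 3.11, 3.08 and 3.07, PLK3 with 2.67, 3.12 and 2.87, ZMAT3 with 2.45, 2.77 and 2.61, and TP53I3 with 2.02, 2.74 and 2.84. From the p53-/- 0 h array PHLDA3 was at 2.56, 2.53 and 2.51, ZMAT3 at 2.54, 2.86 and 2.70, and TP53I3 at 2.10, 2.82 and 2.92. The median rise of the 10 genes was 2.60, 2.93 and 2.86, beside 0.06, -0.04 and 0.16 over all genes, and from the p53-/- 0 h array 2.95, 3.17 and 2.96, beside 0.08, -0.01 and 0.20.

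The rises were largely in place at the earliest time sampled. From 12 to 24 h the p53+/+ levels of the 10 genes moved by a median of 0.39, from -0.03 for PHLDA3 to 0.82 for FDXR, and from 24 to 48 h by a median of -0.15, from -0.65 for BTG2 to 0.10 for TP53I3. The highest p53+/+ level was at 24 h for 7 of the 10 genes, a number that was 6 with another background correction and 8 or 9 with other scalings. On the probes used, TP53I3 and PERP were at their highest at 48 h and PHLDA3 at 12 h. PERP moved by 0.0087 from 24 to 48 h, and from 12 to 24 h PHLDA3 moved by -0.031 and PLK2 by 0.0055. These steps were under the technical SD, so the highest time of these genes cannot be read. The second probe of TP53I3 was highest at 24 h, with a rise of 3.14 against 2.83 at 48 h.

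In p53-/- cells the 10 genes did not move together. PLK2 rose by 1.69, 2.27 and 2.73, which placed it at the 98.9, 98.4 and 97.6 percentiles of all genes in these cells. Its change at 48 h exceeded that of 2.40 in p53+/+ cells from the array labelled p53+/+ 0 h. It was below the p53+/+ change of 4.35 from the p53-/- 0 h array. BTG2 was at 0.04 at 12 h and then at 1.17 and 1.16, over 2-fold at 24 and 48 h. FDXR, PLK3 and AEN stayed under 2-fold, with changes of -0.19 to 0.67, 0.53 to 0.70 and 0.57 to 0.90, and PERP lay between -0.28 and 0.28. On the probes used, the other 4 genes were below their 0 h level at all 3 times, though the second probe of TP53INP1 was at 0.05 at 24 h. TP53INP1 was lowest, with -2.07, -1.11 and -0.89, followed by TP53I3 with -0.76, -0.41 and -0.88, PHLDA3 with -0.40, -0.67 and -0.51, and ZMAT3 with -0.36, -0.35 and -0.16. Without scaling between arrays 3 genes in place of 4 were below at all 3 times. The median over the 10 genes was -0.23, 0.39 and 0.42, beside -0.02, 0.01 and 0.07 over all genes.

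**Figure D3:**
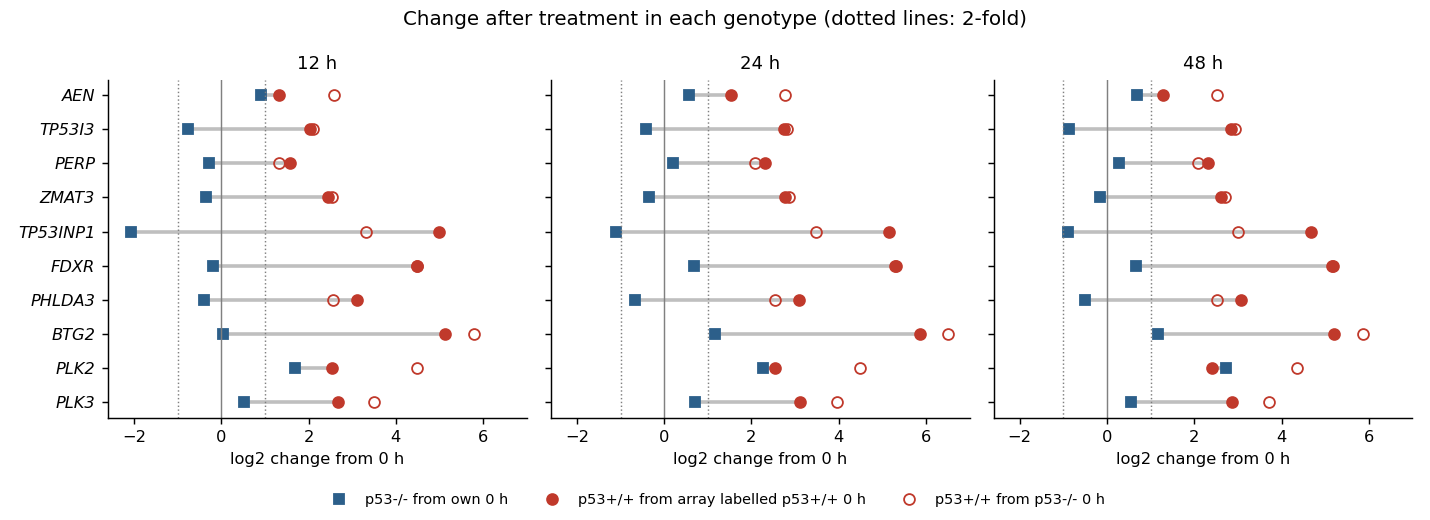
Log2 change from 0 h (x axis) for each gene (y axis) at 12, 24 and 48 h (panels). Blue squares are p53-/- cells against their own 0 h array, filled red circles are p53+/+ cells against the array labelled p53+/+ 0 h, and open red circles are the same p53+/+ arrays against the p53-/- 0 h array. The grey bar is short for PLK2 and AEN and longest for TP53INP1, whose p53-/- points lie below 0.

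Whether the change after treatment itself differed between genotypes was asked with the interaction term of a limma fit over all 8 arrays. By this test 7 of 10 genes changed more in p53+/+ cells, against 0.94% of all probes. The estimates were 6.29 for TP53INP1 (SE 0.68, adjusted p = 0.0164), 4.61 for FDXR (SE 0.67, adjusted p = 0.0325), 4.61 for BTG2 (SE 0.75, adjusted p = 0.0423) and 3.62 for PHLDA3 (SE 0.34, adjusted p = 0.0118). TP53I3 at 3.22 (adjusted p = 0.0492), ZMAT3 at 2.90 (adjusted p = 0.0217) and PLK3 at 2.29 (adjusted p = 0.0467) also passed. PERP at 2.00 (SE 0.57, adjusted p = 0.145), AEN at 0.66 (SE 0.37, adjusted p = 0.428) and PLK2 at 0.26 (SE 0.57, adjusted p = 0.859) did not pass, and these misses do not show that the changes were alike. The estimate for AEN was -0.15 without scaling between arrays, and that for PLK2 was -0.54 without scaling and -0.03 without the 12 h arrays. With any 1 treated time left out, limma called 0 of the 10, while 8 of 10 had an unadjusted p under 0.05 in each such fit. With time point as a block, which pairs the 2 genotypes at each treated time, 1 of 10 passed, FDXR (adjusted p = 0.0482), and 5 of 10 passed when arrays were scaled on the median or by quantiles. The whole comparison rests on 1 untreated array of each genotype, including the array labelled p53+/+ 0 h.

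At 0 h the array labelled p53+/+ and the p53-/- array differed in both directions. PLK2 was 1.95 higher on the former, AEN 1.25, PLK3 0.83 and BTG2 0.65. TP53I3, ZMAT3 and FDXR lay within 0.09, while PERP was at -0.24, PHLDA3 at -0.55 and TP53INP1 at -1.67. The median of the 10 genes was 0.09, beside 0.03 over all genes.

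**Figure D4:**
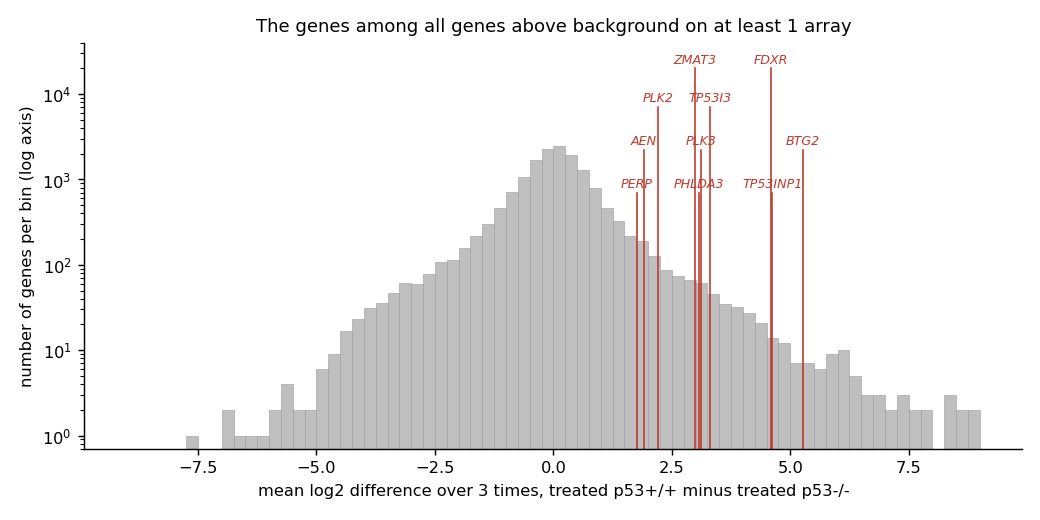
Number of genes (y axis, log scale) in each 0.25-wide bin of the log2 difference between treated p53+/+ and treated p53-/- cells, averaged over the 3 times (x axis), for 15811 genes. Red lines mark the 10 genes, which all lie in the right-hand part of the distribution, between 1.76 and 5.26.

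Other genes of the p53 pathway moved the same way in most cases. Of 26 further targets, all tested, 23 were at least 2-fold higher in treated p53+/+ cells at all 3 times, as were 6.75% of all genes. By limma 24 passed as higher, against 10.6% of all probes. Their median estimate over the 26 was 2.26, below the median of 3.09 of the 10 effectors. The exceptions were PMAIP1, which encodes the BH3-only protein NOXA, at -0.20 (adjusted p = 0.780 by limma), and APAF1, the scaffold of the apoptosome, at 0.96 (adjusted p = 0.0865). Of the 26, 23 rose at least 2-fold at all times from the array labelled p53+/+ 0 h and 24 from the p53-/- 0 h array, against 9.53% and 9.55% of all genes. In p53-/- cells 2 of the 26 did so, against 3.21% of all genes. The 2 targets were CDKN1A, the inhibitor of cyclin-dependent kinases, and GDF15, a secreted stress cytokine. PLK2 is thus joined by 2 of the 26 further targets that rose in both genotypes. By the interaction term 10 of the 26 passed, against 0.94% of all probes.

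Most paralogs of the 10 genes showed smaller differences than the genes themselves. Of 16 listed paralogs 14 were tested, and 0 were at least 2-fold higher in treated p53+/+ cells at all 3 times, with a median limma estimate of 0.07. By limma 2 were higher, PHLDA1 at 1.13 (adjusted p = 0.0350) and TOB1 at 1.53 (adjusted p = 0.0267). From the array labelled p53+/+ 0 h, 2 of the 14 rose at least 2-fold at all 3 times, namely TOB1 by 2.34, 2.33 and 2.16 and ISG20, the paralog of AEN, by 2.16, 2.73 and 2.41. From the p53-/- 0 h array 4 of the 14 did so, with PHLDA2 and BTG3 beside TOB1 and ISG20. In p53-/- cells 2 of the 14 did so, PHLDA2 and TMEM47. ISG20 was 2.25 and 1.53 higher than in p53-/- cells at 12 and 24 h but -0.26 at 48 h, and its limma estimate of 1.17 did not pass (adjusted p = 0.254). Beside PHLDA3 at 3.06, PHLDA2 was at -0.0024, and beside BTG2 at 5.26, BTG1 was at 0.17 and BTG3 at 0.53. Beside ZMAT3, ZMAT2 was at -0.17, and TP53INP2 was at 0.06 beside TP53INP1. In the polo-like kinase family the treated difference had the opposite sign. PLK1, which drives mitotic entry, was lower in treated p53+/+ cells by 2.35 at 12 h and 2.67 at 24 h, and PLK4, which starts centriole duplication, by 2.05 and 2.08. The 0 h arrays already differed by -2.30 for PLK1 and by -0.36 for PLK4. From its own 0 h array PLK1 changed by -2.38 and -2.47 at 12 and 24 h in p53+/+ cells and by -2.33 and -2.10 in p53-/- cells, and its interaction estimate did not pass limma (adjusted p = 0.655). Both were not well above background on the p53+/+ 48 h array, and limma gave adjusted p-values of 0.0110 for PLK1 and 0.0405 for PLK4.

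**Figure D5:**
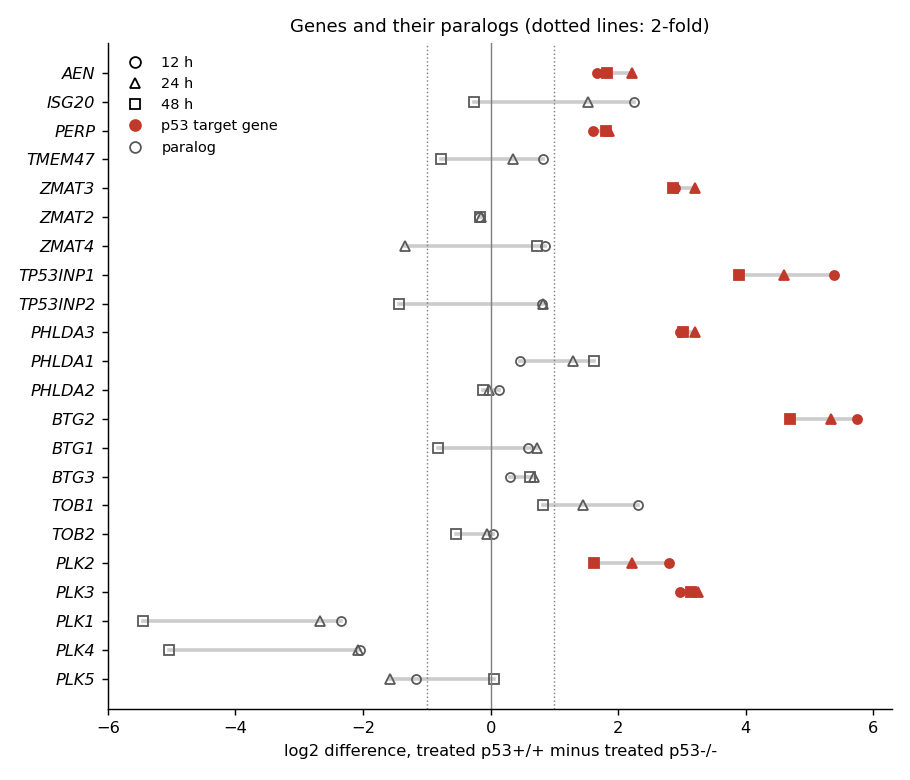
Log2 difference of treated p53+/+ minus treated p53-/- (x axis) for the genes with a paralog on the list (filled red symbols) and for their paralogs (open grey symbols), at 12, 24 and 48 h. PLK2 and PLK3 lie right of the 2-fold line and PLK1 and PLK4 left of it, with the 48 h points of PLK1 and PLK4 resting on an array where they were not well above background. ZMAT4 and PLK5 were above background on 1 and 2 arrays only.

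PERP was also set beside 8 genes of the desmosome. By limma 4 of the 8 were higher in treated p53+/+ cells, against 10.6% of all probes. The 4 genes were the cadherins DSG3 at 4.68 (adjusted p = 0.000665), DSC3 at 3.55 (adjusted p = 0.00156) and DSC2 at 1.77 (adjusted p = 0.00798) and the plaque protein PKP3 at 1.33 (adjusted p = 0.0121). DSP, the desmoplakin that anchors keratins, was at -0.17, JUP at 0.48 and DSG2 at 0.44, and none of these 3 passed the test. PKP1 was above background on 1 array. Of the basal markers, 6 were also higher in treated p53+/+ cells, and whether the desmosome genes moved with them was not tested.

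Over the 8 arrays the 10 genes followed one another closely. Pearson's r of a gene with the mean of the other 9, a description over 8 arrays that fall into 2 sets of levels, ran from 0.877 for PLK2 and 0.940 for AEN to 0.996 for FDXR. Among 11818 genes above background on all arrays, those outside the 10 with profiles most like their mean were MOB3C and RNASE7 (r of 0.998 each), ST14 (0.998), SNX2 (0.997) and TSTD1 (0.997). RNASE7, an antimicrobial ribonuclease, differed between treated genotypes by 5.78, 6.63 and 5.91, more than any of the 10 at 24 and 48 h. At 12 h BTG2 was at 5.75, too close to RNASE7 to rank. MOB3C differed by 1.51, 1.48 and 1.44.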

How the data were processed

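The files are 1-colour Agilent scanner outputs for 8 arrays (human build hg19 per the file headers). The authors deposited the processed signal, which is a linear intensity after background correction by Agilent Feature Extraction 10.7.3.1, and a series table with the same numbers (503808 of 503808 values equal within a relative 0.001). No normalization between arrays is given in the sources used here. Groups came from the labels. Of 58717 non-control spots per array, spots flagged as outliers or uneven were left out (233 to 370 per array) and no spot was saturated. Log2 signals minus each array's 75th percentile were averaged over spots, which left 42391 of 42405 probes, of which 27227 (64.2%) were named by accession through RefSeq (GRCh38.p14). The 28947 probes that passed background on 1 array or more entered limma fits, on genotype over the 6 treated arrays or on genotype, treatment and their interaction over 8, each with 4 residual degrees of freedom, and p-values were adjusted by Benjamini-Hochberg. The fits called 5201 and 488 probes.

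The text names all 10 genes, and pathway, paralog, partner and marker genes from lists, of which ISG20L2, FDX2 and ZMAT1 gave no value, and some genes of the lists are not reported here. The 10 genes and the lists were chosen with earlier results of these data known. The alternatives were other scalings, normexp background correction (offset 50), the mean of probes, other filters, fold rules and baselines, time as a block and each time left out. The number of arrays limits the precision. The fits were tested on simulated data. The tools were limma 3.58.1 in R 4.3.3, and numpy 2.4.6, pandas 2.3.3 and matplotlib 3.10.9 in Python 3.11.15.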

Additional observations from a re-analysis of the deposited data

Results flagged for a closer look

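For 7 genes the change after treatment differed between genotypes in the limma interaction test, which is why they are listed for a closer look. The extra log2 change in p53+/+ cells was 6.29 for TP53INP1, 4.61 for FDXR, 4.61 for BTG2, 3.62 for PHLDA3, 3.22 for TP53I3, 2.90 for ZMAT3 and 2.29 for PLK3. At each of the 3 times the p53+/+ change exceeded the p53-/- change in all 7. All 7 values rest on the array labelled p53+/+ 0 h, which differed from the p53-/- 0 h array by -1.67 for TP53INP1, 0.83 for PLK3, 0.65 for BTG2 and -0.55 for PHLDA3, and by at most 0.09 for TP53I3, ZMAT3 and FDXR. With time point as a block 1 of the 7, FDXR, passed. The adjusted p of each ranged widely over the alternatives, from 0.00203 to 0.214 for PHLDA3 and from 0.0130 to 0.286 for TP53I3.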

How the results depend on the processing

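The limma difference over treated arrays kept its direction for all 10 genes under every alternative and its call for all 10 except in 2 fits. Without the 24 h arrays 7 of 10 passed (292 probes called in place of 5201), and AEN, PERP and PLK2 did not. Without the 48 h arrays 9 passed, with PERP the exception. The count of 1 gene risen in p53-/- cells was 2 (PLK2 and BTG2) when 2 of 3 times sufficed. The interaction count of 7 was 5 with median or quantile scaling, 6 with the mean of probes, 4 without scaling, 4 with no filter on dim probes, 1 (FDXR) with time point as a block, and 0 without the 12 h, the 24 h or the 48 h arrays. ZMAT3, TP53INP1, FDXR and PHLDA3 passed under every scaling. Over all probes the treated fit called 5201, but 9393 without scaling, 9894 with normexp, 12536 with no filter, and 2670 and 2571 without the 12 h and 48 h arrays. The interaction fit called 488, but 1296 without scaling, 1251 with normexp, 60 with the block and 42, 0 and 0 without the 12 h, 24 h and 48 h arrays (4919, 3063 and 5274 at an unadjusted p under 0.05). Leaving out a time also leaves 2 residual degrees of freedom in place of 4. Interaction estimates turned sign for AEN without scaling (-0.15) and for PLK2 without scaling (-0.54) and without the 12 h arrays (-0.0275), none of which passed the test, and the cause was not tested. Without scaling, the median of all genes lay at -0.37, -0.52 and -0.76 between treated genotypes at 12, 24 and 48 h, and AEN, PERP and PLK2 were under 2-fold at 48 h, so that 27 of the 30 differences reached 2-fold in place of 30. The labels give no replicate numbers, so time point as a block was the only pairing run, and under it all 10 treated calls held. With 1 array per condition, differences near the technical SD cannot be read.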
